A study of Mus musculus with 6 samples.

Results

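The genes described here are 9 transcription factors known for setting or keeping the identity of microglia and other macrophages: Sall1, Sall3, Mef2a, Mef2c, Spi1, Irf8, Maf, Runx1 and Cebpa. They were chosen by gene symbol from 41079 genes in the deposited tables, with earlier results of these data known. All 9 passed the filter on low counts that left 14618 genes to test. RNA-seq compared 3 control and 3 stimulated libraries of cultured microglia. All cells came from the brains of C57Bl/6N mice aged 1 to 3 days, were grown in mixed glial flasks fed with L-929 conditioned medium, a source of macrophage growth factor, and were harvested by shaking. Several neonatal brains were pooled in each flask according to the study's methods. Control cells were kept in serum-free DMEM/F12 medium. Stimulated cells received human TGFbeta, human IL34 and CX3CL1, each at 100 ng/mL. The study describes the same optimized condition as also holding cholesterol, an insulin-transferrin-selenium supplement and a collagen IV coating, so single agents cannot be told apart. Both conditions shared a brief contact with serum while the cells settled. The labels do not state that libraries of one condition came from separate cultures, so p-values measure the spread between these libraries, although the study calls them biological replicates.

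Macrophage identity is built in layers. Spi1 encodes PU.1, an ETS factor that opens enhancers throughout the myeloid lineage, and it works with partners such as IRF8, RUNX1 and C/EBP proteins. Microglia add a layer that depends on TGF-beta signalling in the brain, in which SALL1 holds the microglial program and MEF2 factors are active at microglial enhancers, and this layer is known to fade when the cells are taken out of the brain. The comparison asked how the RNA of each of these factors differed between plain serum-free medium and medium carrying cues of the brain environment.

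Of the 9 factors, 5 were higher and 2 lower in the stimulated cultures at an adjusted p under 0.05 (quasi-likelihood test of edgeR, p-values adjusted by Benjamini-Hochberg over every gene tested). Cebpa, Sall3, Mef2a and Sall1 rose 3.15-fold, 2.73-fold, 2.38-fold and 2.34-fold, and Irf8 rose 1.46-fold. Maf was 3.87-fold lower and Spi1 1.48-fold lower, while Mef2c and Runx1 did not pass the test. Over all genes tested, 29.8% were called, 14.7% as higher and 15.2% as lower. The median size of the log2 fold change was 1.23 over the 9 factors and 0.26 over all genes tested. Of 10 tested relatives from the same families, 5 were higher and 2 lower, with a median log2 fold change of 0.36. The values of the conditions did not overlap for 8 of the 9 factors, against 43.9% of all genes tested. Because the measurement was made on bulk RNA, fewer cells of a type and less RNA per cell cannot be told apart.

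**Figure D1:**
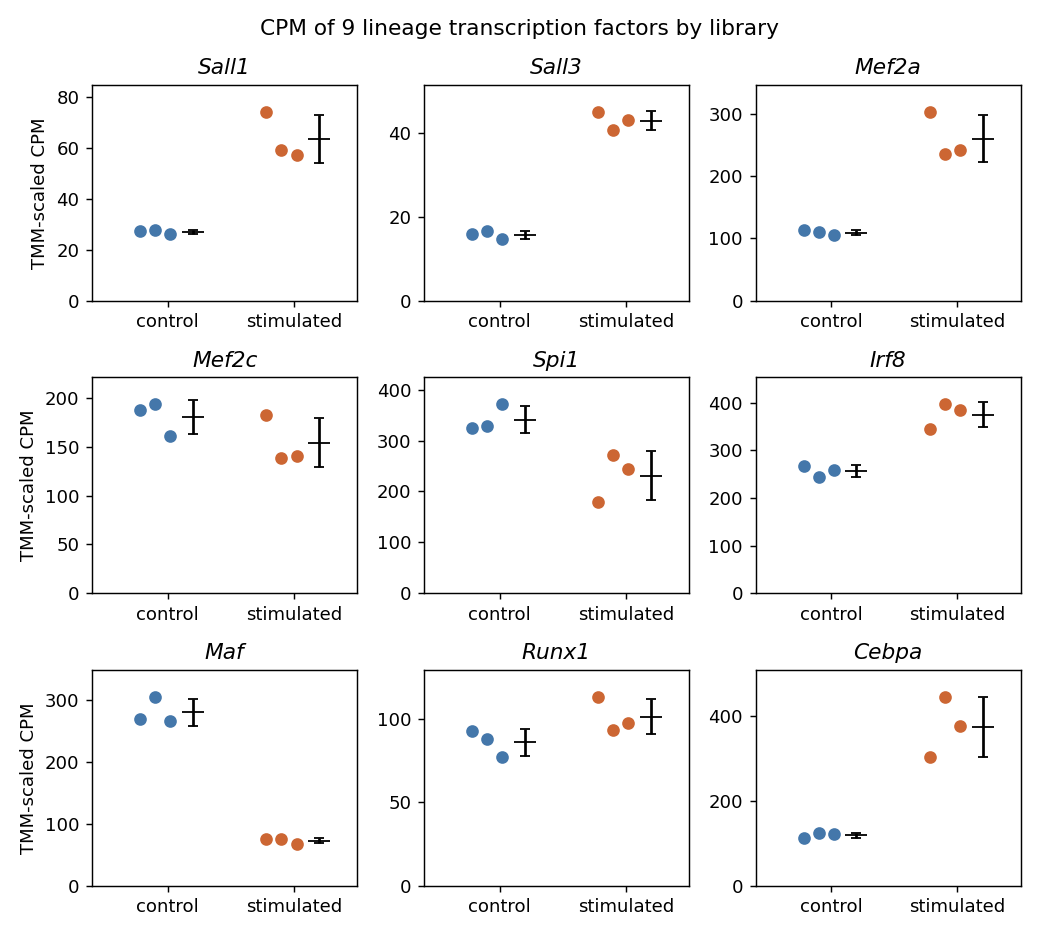
CPM (counts scaled to library size, with TMM factors) of 9 transcription factors in 3 control and 3 stimulated libraries, each y axis starting at 0. Points are libraries in the order of replicates 1, 2 and 3, and the bar beside them is the mean with its SD (n = 3). Sall1, Sall3, Mef2a, Irf8 and Cebpa sit higher in every stimulated library, Maf and Spi1 sit lower, the Mef2c values overlap, and the Runx1 values are separated only by the gap between 92.8 and 93.3 CPM.

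The libraries held 20628148 to 27261839 counts, and the least read member had 364 counts in its lowest library. CPM values are counts scaled to library size, with TMM factors between libraries. The summed CPM of 8 microglial markers was 6355 to 6448 in control and 10773 to 12388 in stimulated libraries. Markers of other cells were lower in sum but several moved between conditions. Oligodendrocyte markers summed to 125 to 140 CPM in control and 156 to 190 CPM in stimulated libraries, and astrocyte markers to 28.5 to 30.1 and 13.9 to 17.3 CPM. The astrocyte sum fell mostly through Aldh1l1, with means of 16.5 and 4.64 CPM (edgeR adjusted p = 3.8e-06). The other astrocyte markers did not pass the test, and the mean of Gfap was higher in stimulated libraries (4.18 and 4.68 CPM). Neuron markers summed to 3.07 to 4.63 and 5.30 to 6.29 CPM, and monocyte and granulocyte markers to 0.70 to 1.24 and 1.98 to 3.66 CPM. Fibroblast markers summed to 18.5 to 24.7 CPM in control and 19.6 to 74.6 CPM in stimulated libraries, with the highest value in stimulated replicate 3. Endothelial markers were at 1.66 to 2.12 and 1.83 to 2.90 CPM, and lymphocyte markers at 0 to 0.043 CPM. The part of these cells in the results was not tested. Stimulated replicate 1 stood apart. A chi-square statistic per gene between replicates was 78.3 and 46.2 for stimulated replicate 1 against replicates 2 and 3, and 10.7 to 25.8 for all other pairs of the same condition, so no library was a copy of another. Its departure followed gene length. With genes cut into 4 sets of near equal number by annotated exon length, from the shortest to the longest set its median log2 difference from the other stimulated libraries was -0.21, -0.10, 0.01 and 0.16. Values without this library are therefore given for each factor.

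Sall1 encodes a zinc finger repressor that marks microglia among the macrophages of the body. The gene (ENSMUSG00000031665) lies on the minus strand of chromosome 8 at 89753863 to 89770823 in GRCm39, the build that the authors used under the name mm39. Its level was 27.3, 27.9 and 26.2 CPM in control replicates 1 to 3 and 74.2, 59.3 and 57.3 CPM in stimulated replicates 1 to 3. Every stimulated library was above every control library, and stimulated replicate 1 was the highest. The mean went from 27.1 ± 0.861 to 63.6 ± 9.28 CPM (SD, n = 3), which is 1.23 as log2 fold change ± 0.11 (SE, edgeR adjusted p = 2.5e-05). Without stimulated replicate 1 the log2 fold change was 1.10.

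Sall3 encodes a relative of SALL1 with the same type of zinc fingers, and it is also found in microglia. The gene (ENSMUSG00000024565) is on the minus strand of chromosome 18 at 81009591 to 81030631. Its level was 15.9, 16.6 and 14.7 CPM in the controls and 45.1, 40.7 and 43.2 CPM in the stimulated libraries. The groups were far apart and the stimulated libraries were close to each other, with a coefficient of variation of 5.11%, the lowest among the 9 factors in that condition. This gave a log2 fold change of 1.45 ± 0.10 (SE, edgeR adjusted p = 2.8e-06), and 1.41 without stimulated replicate 1.

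Sall2, a more widely expressed member of the family, rose from 5.75 ± 0.874 to 9.91 ± 1.85 CPM (n = 3), with a log2 fold change of 0.79 (edgeR adjusted p = 0.0071). Sall4, known from stem cells and the germ line, had no count in any library, which allows up to 0.145 CPM from 3 counts in the shallowest case. Per kilobase of exon, the summed level of the SALL genes went from 6.93 ± 0.393 to 16.3 ± 1.91 CPM per kb. Sall1 made up 57.5% ± 1.51 of that sum in control and 57.1% ± 1.72 in stimulated libraries, so its share moved by less than the spread between replicates. The share of Sall3 was 27.3% ± 0.280 and 31.8% ± 2.50, and that of Sall2 15.2% ± 1.47 and 11.1% ± 0.786.

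SALL genes are also active in neural progenitors, so markers of other brain cells were read beside them. The 4 neural progenitor markers summed to 43.4 to 71.1 CPM in control and 27.4 to 33.6 CPM in stimulated libraries. This sum was mostly Nes, the intermediate filament gene, which fell from 51.2 ± 15.2 to 26.7 ± 3.86 CPM (edgeR adjusted p = 0.0046). The other 3 markers had higher means in stimulated libraries, at low levels: Sox2 was at 2.15 and 2.64 CPM and Pax6 at 0.557 and 0.862 CPM, neither passing the test, and Hes5, at 0.014 and 0.117 CPM, was too low to test. The summed precursor and pericyte markers were 30.7 to 43.1 and 438 to 625 CPM. Nearly all of this second sum was Cspg4, a proteoglycan gene, with means of 31.2 and 510 CPM. The part of these cells in the SALL values was not tested.

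Mef2a encodes a MADS box activator whose binding motif is found at many microglial enhancers. The gene (ENSMUSG00000030557) is on the minus strand of chromosome 7 at 66880911 to 67022606 in GRCm39. Its level was 112.8, 110.1 and 105.2 CPM in the controls and 303.4, 235.9 and 241.8 CPM in the stimulated libraries. As for Sall1, the groups were well apart and stimulated replicate 1 was the highest. The log2 fold change was 1.25 ± 0.11 (SE, edgeR adjusted p = 1.8e-05), and 1.13 without stimulated replicate 1.

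Mef2c, the relative of Mef2a that is known to restrain microglial responses to inflammation, behaved differently. The gene (ENSMUSG00000005583) is on the plus strand of chromosome 13 at 83652064 to 83815555. Its level was 187.6, 193.6 and 160.8 CPM in the controls and 183.0, 138.6 and 140.6 CPM in the stimulated libraries. Stimulated replicate 1 lay among the controls, while replicates 2 and 3 lay below them. The log2 fold change was -0.23, with a 95% interval from -0.51 to 0.05 (edgeR adjusted p = 0.207). Without stimulated replicate 1 it was -0.37 (adjusted p = 0.0043), and with the gene length trend of each library removed it was -0.31 (adjusted p = 0.015), so the call on Mef2c depended on that library.

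The log2 ratio of the Mef2c count to the Mef2a count within a library needs no scaling between libraries. It was 0.73, 0.81 and 0.61 in the controls and -0.73, -0.77 and -0.78 in the stimulated libraries. Mef2c thus had more counts than Mef2a in every control library and fewer in every stimulated one. Per kilobase of annotated exon the order was the same. The deposited FPKM values rest on other gene lengths. There Mef2a was above Mef2c in every control library too, at 11.6, 11.4 and 10.2 against 3.45, 3.57 and 2.78. The log2 count ratio differed by -1.48 between conditions, with a two-sided exact permutation p of 0.1, the smallest that 3 against 3 libraries can give. Stimulated replicate 1 lay close to the others on this ratio.

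Mef2d, the third MEF2 gene with a tested level, was at 140 ± 4.62 and 154 ± 9.74 CPM, a log2 fold change of 0.14 that did not pass the test (edgeR adjusted p = 0.237). Mef2b had at most 8 counts in a library and was not tested. Per kilobase of exon, Mef2a rose from 19.7% ± 0.267 to 36.5% ± 1.17 of the summed MEF2 level, Mef2c went from 29.4% ± 1.69 to 19.5% ± 1.00, and Mef2d from 50.9% ± 1.43 to 44.0% ± 2.17.

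The RefSeq promoter of Mef2a is shown because it holds the letters of motifs named after 2 kinds of members. The stretch is chr7:67372851-67372978 on the minus strand of GRCm38.p6, from 120 bases before to 8 bases after the annotated start. Capitals mark GAGGAA, the core bound by PU.1, and a MEF2 box at the start site.
Mef2a: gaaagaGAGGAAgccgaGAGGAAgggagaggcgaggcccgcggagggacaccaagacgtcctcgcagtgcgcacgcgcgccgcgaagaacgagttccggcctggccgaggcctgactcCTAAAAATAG
GAGGAA began at positions -114 and -103 from the start and the MEF2 box at -2. Searched on both strands, GAGGAA was in 28.3% and a MEF2 box in 3.19% of 32841 RefSeq promoter windows of 300 bases. A match describes letters in a window and is not evidence of binding.

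Spi1 encodes PU.1, the factor that all macrophages need. The gene (ENSMUSG00000002111) is on the plus strand of chromosome 2 at 90912562 to 90946101. Its level was 324, 328 and 371 CPM in the controls and 179, 271 and 244 CPM in the stimulated libraries. The groups did not overlap, and stimulated replicate 1 was the lowest of all. On the log2 scale Spi1 fell by 0.56, with a 95% interval from -0.88 to -0.24 (edgeR adjusted p = 0.0144). Without stimulated replicate 1 it was -0.41 (adjusted p = 0.0023), and without control replicate 3, the highest control, it was -0.50 and the adjusted p rose to 0.0535.

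Close relatives of PU.1 were scarce. Spic, the factor of red pulp macrophages, had 29, 32 and 21 counts in the controls and 0, 2 and 0 in the stimulated libraries. Scaled to library size, the summed counts were 35.8 times higher in control, with an exact 95% counting interval from 9.61 to 301 (edgeR adjusted p = 0.00057). Spib, known from B cells and plasmacytoid dendritic cells, had 9, 16 and 10 counts against 4, 1 and 0 and was too low to test.

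Irf8 encodes an interferon regulatory factor that binds DNA with PU.1 and is needed for normal microglia. The gene (ENSMUSG00000041515) is on the plus strand of chromosome 8 at 121463096 to 121485659 in GRCm39. Its level was 267, 244 and 259 CPM in the controls and 345, 397 and 385 CPM in the stimulated libraries. The lowest stimulated library, replicate 1, was still above every control. For Irf8 the log2 fold change was 0.55 ± 0.09 (SE, edgeR adjusted p = 0.0011), and 0.61 without stimulated replicate 1. Irf4, which shares the partnership with PU.1, had 23, 18 and 25 counts in the controls and 4, 14 and 3 in the stimulated libraries, and did not pass the test (edgeR adjusted p = 0.0546).

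Within each library, the log2 ratio of Irf8 to Spi1 counts was -0.28, -0.43 and -0.52 in the controls and 0.95, 0.55 and 0.66 in the stimulated libraries. Spi1 had the more counts of the pair in every control library and Irf8 in every stimulated one. Counts do not allow for exon length, which is 3021 bases for Spi1 and 9723 for Irf8. Per kilobase of exon Spi1 stayed above Irf8 in every stimulated library, at 59.1, 89.7 and 80.8 against 35.5, 40.8 and 39.6 CPM per kb. The log2 ratio of Irf8 to Spi1 counts rose by 1.13 (two-sided exact permutation p = 0.1, the smallest possible). The log2 ratio of Sall1 to Spi1 rose by 1.80, from -3.57, -3.56 and -3.82 to -1.27, -2.19 and -2.09 (exact permutation p = 0.1). Stimulated replicate 1 was the highest on both ratios, and without it the differences were 1.01 and 1.51.

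Maf encodes c-MAF, a leucine zipper factor that is prominent in border and tissue macrophages. The gene (ENSMUSG00000055435) is on the minus strand of chromosome 8 at 116409632 to 116434579. Its level was 269, 305 and 266 CPM in the controls and 74.8, 74.8 and 67.5 CPM in the stimulated libraries. This was the largest log2 difference among the 9 factors, and stimulated replicate 1 did not stand out. The log2 fold change was -1.95 ± 0.09 (SE, edgeR adjusted p = 4.3e-07), and it lay between -1.99 and -1.89 with each library left out in turn. Without stimulated replicate 1 it was -1.98.

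The summed level of 3 markers of border macrophages moved in the same direction as Maf. Their sum was 308 to 351 CPM in control and 56.8 to 67.5 CPM in stimulated libraries. Nearly all of it was Mrc1, the mannose receptor, with means of 330 and 62.7 CPM. Cd163 stayed at or below 0.293 CPM and Lyve1 at or below 0.521 CPM in every library, both too low to test. The mean of Cd163 was lower in stimulated libraries (0.251 and 0.016 CPM), but that of Lyve1 was higher (0.091 and 0.279 CPM). So 2 of the 3 markers were near 0 in both conditions, and the part of border macrophages in the Maf value was not tested.

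Runx1 encodes the DNA binding subunit of core binding factor, needed for the first blood cells and expressed in early microglia. The gene (ENSMUSG00000022952) is on the minus strand of chromosome 16 at 92398354 to 92623037 in GRCm39. Its level was 92.8, 87.8 and 76.9 CPM in the controls and 113.0, 93.3 and 97.2 CPM in the stimulated libraries. The groups were separated only by the step from 92.8 to 93.3 CPM. The log2 fold change was 0.24, with a 95% interval from 0.00 to 0.47 (edgeR adjusted p = 0.125), and 0.15 without stimulated replicate 1.

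Its relatives rose from much lower levels. Runx2, the factor of bone formation, had 39, 42 and 49 counts in the controls and 241, 204 and 168 in the stimulated libraries. This was a log2 fold change of 2.43 (edgeR adjusted p = 7.5e-06), the largest rise among the tested relatives of the 9 factors. Runx3, which takes part in TGF-beta responses of leukocytes, had 50, 34 and 54 counts against 75, 114 and 70, a log2 fold change of 1.09 (edgeR adjusted p = 0.0082). Runx1 nevertheless held most of the summed RUNX level per kilobase, 92.3% ± 1.31 in control and 81.2% ± 1.92 in stimulated libraries. Cbfb, the shared partner subunit, was at 104 ± 4.26 and 97.3 ± 5.79 CPM and did not pass the test (edgeR adjusted p = 0.431).

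A short stretch from the start of a RefSeq Runx1 transcript is shown for its repeated RUNX letters. It is chr16:92826028-92826055 on the minus strand of GRCm38.p6, from 20 to 47 bases after the start. Capitals mark ACCACA, which reads as TGTGGT on the other strand, the core recognised by RUNX proteins.
Runx1: tcataaacaACCACAgaACCACAagttg
The copies began 29 and 37 bases after the start, and TGTGGT on either strand was in 16.8% of all promoter windows.

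Cebpa encodes C/EBP alpha, a leucine zipper factor that works with PU.1 in the making of myeloid cells. The gene (ENSMUSG00000034957) is a single exon on the plus strand of chromosome 7 at 34818718 to 34821353 in GRCm39. Its level was 112, 123 and 121 CPM in the controls and 302, 444 and 375 CPM in the stimulated libraries. Every stimulated library was far above the controls, and here stimulated replicate 1 was the lowest of its condition. Cebpa had a log2 fold change of 1.65 ± 0.13 (SE, edgeR adjusted p = 1.1e-05), the largest rise among the 9 factors, and 1.79 without stimulated replicate 1.

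The other C/EBP genes had smaller or opposite differences. Cebpb, linked to inflammatory gene expression, was at 75.0, 75.0 and 81.7 CPM in the controls and 49.6, 77.8 and 68.6 CPM in the stimulated libraries, with overlapping groups (edgeR adjusted p = 0.257). Cebpd, an acute phase factor, fell by 0.50 on the log2 scale, from 19.8 ± 2.02 to 14.0 ± 2.25 CPM (edgeR adjusted p = 0.0216). Cebpg, which lacks an activation domain and pairs with other C/EBP proteins, rose from 61.3 ± 2.29 to 106 ± 9.59 CPM (log2 fold change 0.79, edgeR adjusted p = 0.00012). Cebpe, a granulocyte factor, had 1 count in 1 library and none in the others.

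The log2 ratio of Cebpa to Cebpb counts was 0.58, 0.71 and 0.57 in the controls and 2.61, 2.51 and 2.45 in the stimulated libraries. It rose by 1.90 (two-sided exact permutation p = 0.1, the smallest possible), and stimulated replicate 1 lay close to the others. Per kilobase of exon, Cebpa went from 40.0% ± 1.09 to 68.1% ± 1.15 of the summed C/EBP level and Cebpb from 45.6% ± 1.29 to 20.8% ± 1.35.

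**Figure D2:**
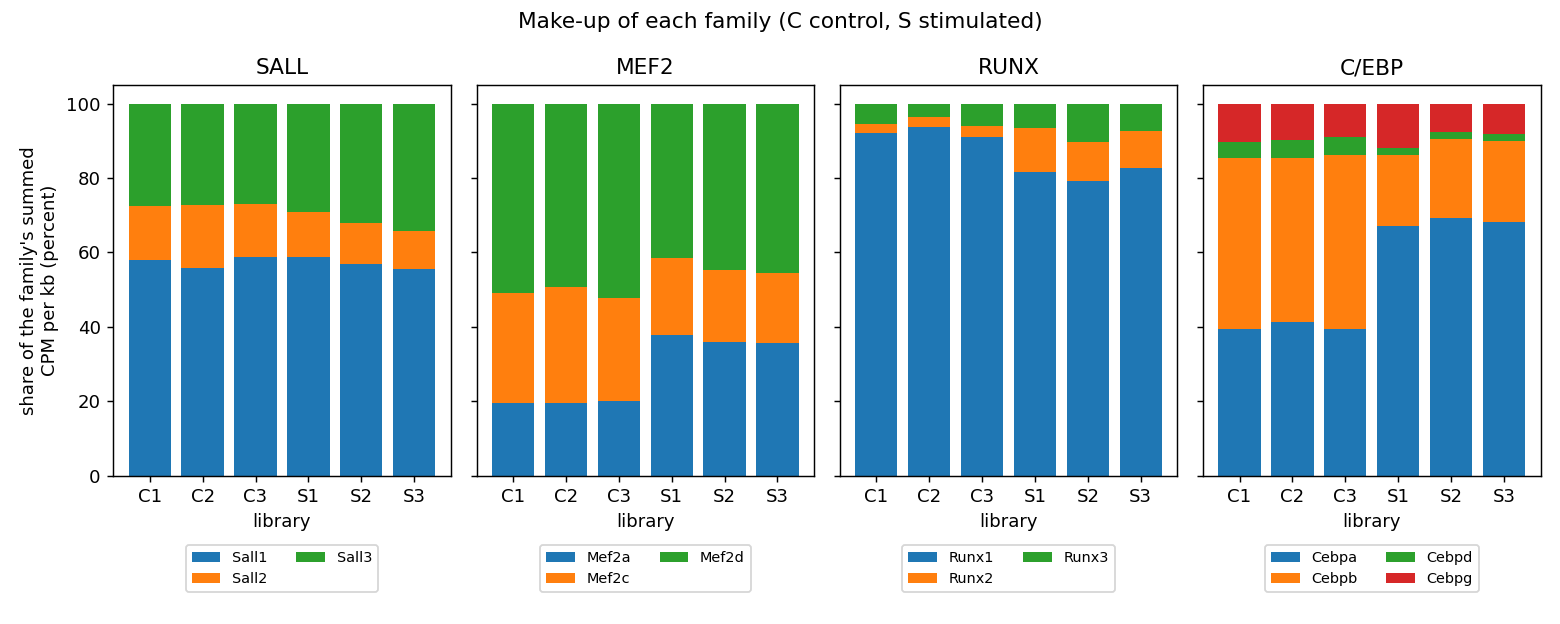
Share of the summed SALL, MEF2, RUNX or C/EBP CPM per kilobase of annotated exon (percent, y axis from 0 to 100) held by its tested genes, 1 stacked bar per library, for control (C1 to C3) and stimulated (S1 to S3) libraries. Sall1 keeps its share of the SALL sum, near 57%, Mef2a goes from 19.7% to 36.5%, Runx1 from 92.3% to 81.2% and Cebpa from 40.0% to 68.1%.

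The RefSeq promoters of Cebpa and Irf8 are shown side by side because both hold a TATAAAA element, marked in capitals, at nearly the same distance from the start. Each stretch covers the 60 bases before the start on the plus strand of GRCm38.p6, at chr7:35119233-35119292 for Cebpa and chr8:120736298-120736357 for Irf8.
Cebpa: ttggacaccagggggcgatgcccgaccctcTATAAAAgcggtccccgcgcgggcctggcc
Irf8: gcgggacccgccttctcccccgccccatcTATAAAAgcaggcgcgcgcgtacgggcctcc
The element began at -30 in Cebpa and -31 in Irf8, and TATAAAA on either strand was in 5.48% of all promoter windows. RefSeq windows were matched for 6 of the 9 factors, 12 windows in all.

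**Figure D3:**
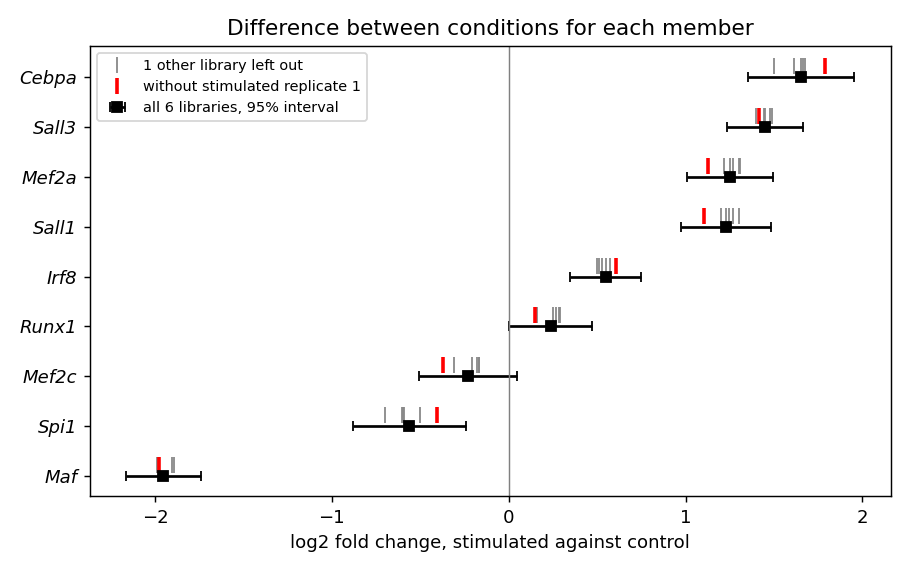
Log2 fold change of each factor, stimulated against control (x axis), from edgeR's quasi-likelihood fit. Squares with bars are estimates from all 6 libraries with 95% intervals, red ticks the values without stimulated replicate 1 and grey ticks those with another library left out. Values run from -1.95 for Maf to 1.65 for Cebpa, the interval of Mef2c includes 0, and that of Runx1 reaches down to 0.00.

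The order of the factors by level was read per kilobase of annotated exon. In control libraries Spi1 was highest at 113 ± 8.59 CPM per kb, ahead of Cebpa at 45.1 ± 2.15, Maf at 30.2 ± 2.33, Irf8 at 26.4 ± 1.20 and Mef2c at 10.5 ± 1.02. Mef2a at 7.06 ± 0.247 and Runx1 at 6.78 ± 0.639 CPM per kb overlapped, and Sall1 at 3.98 ± 0.126 and Sall3 at 1.89 ± 0.117 were lowest. The most abundant factor therefore had a level far above that of the SALL genes.

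In stimulated libraries Cebpa was highest at 142 ± 26.9 CPM per kb, ahead of Spi1 at 76.5 ± 15.7, Irf8 at 38.6 ± 2.80 and Mef2a at 16.8 ± 2.41. Sall1 at 9.33 ± 1.36, Mef2c at 8.99 ± 1.46, Runx1 at 7.99 ± 0.825 and Maf at 7.80 ± 0.455 CPM per kb formed a group in which each overlapped the next. Sall3 stayed lowest at 5.16 ± 0.263. Cebpa and Spi1 thus exchanged the first place, and Maf left the group of abundant factors.

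The deposited FPKM values gave a partly different order, because they rest on other gene lengths. In stimulated libraries Spi1 at 132 ± 22.9 and Cebpa at 130 ± 19.6 FPKM overlapped. Mef2c was low on this scale, at 3.27 ± 0.427 FPKM in control and 2.53 ± 0.497 in stimulated libraries. The length implied by its FPKM values was 57876 bases, 3.38 times the 17132 annotated exon bases, a ratio higher than that of 98.2% of 13952 genes. For the other 8 factors the ratio was 0.363 to 1.30. Fold changes and differences in count ratios between conditions are not touched by these lengths, but family shares and the order of levels are. In stimulated libraries Mef2a was above Mef2d in FPKM, at 28.7, 20.6 and 22.4 against 20.8, 16.9 and 18.9. Per kilobase of annotated exon Mef2a was below Mef2d in each of these libraries.

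**Figure D4:**
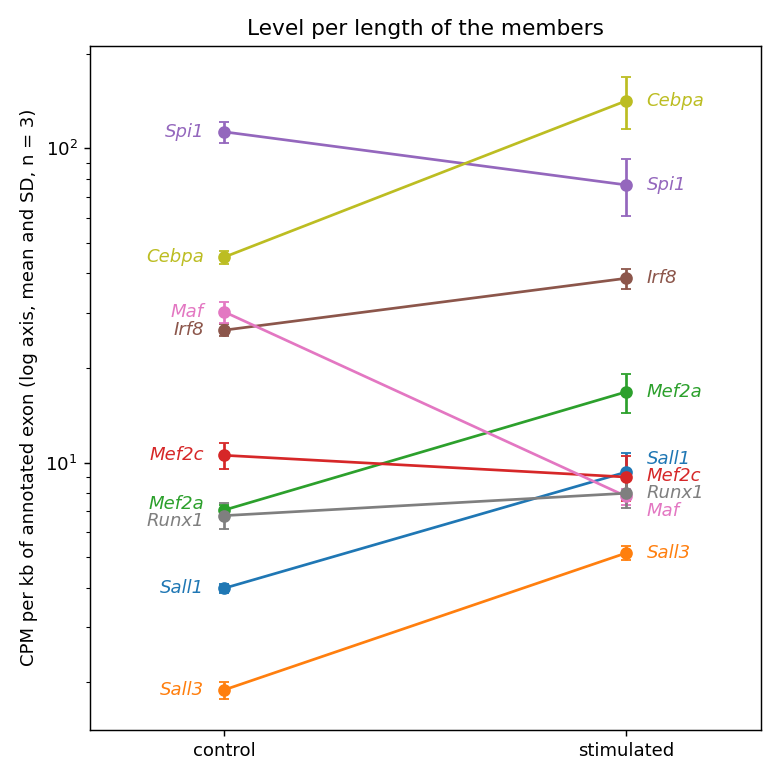
Level of each factor in CPM per kilobase of annotated exon (log y axis), mean and SD of 3 control and 3 stimulated libraries, joined by a line per gene. Spi1 leads in control at 113 and Cebpa in stimulated libraries at 142 CPM per kb, and Sall1, Mef2c, Runx1 and Maf come together between 7.80 and 9.33.

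Replicates of the control condition were close, with coefficients of variation of 3.17% to 9.66% over the 9 factors, against 5.11% to 20.6% in the stimulated condition. Stimulated replicate 1 was the highest or lowest of its condition for 8 of the 9 factors, all but Maf. Stimulated replicate 2 was so for all but Sall1, so this count does not set replicate 1 apart. Replicate 1 differed from the other stimulated libraries by -0.53 (log2) for Spi1 and -0.43 for Cebpa. These have the shortest exons of the 9 factors (3021 and 2636 bases). The difference was 0.34 for Mef2a and 0.39 for Mef2c, the factors with the longest exons (15500 and 17132 bases). Sall1, with 6815 bases, was at 0.35, Sall3 (8342 bases) at 0.10, Maf (9275 bases) at 0.07 and Runx1 (12668 bases) at 0.25. Irf8, with 9723 bases, was at -0.18, so not every factor followed length. RNA quality was not measured in the files, and its part in these values was not tested.

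**Figure D5:**
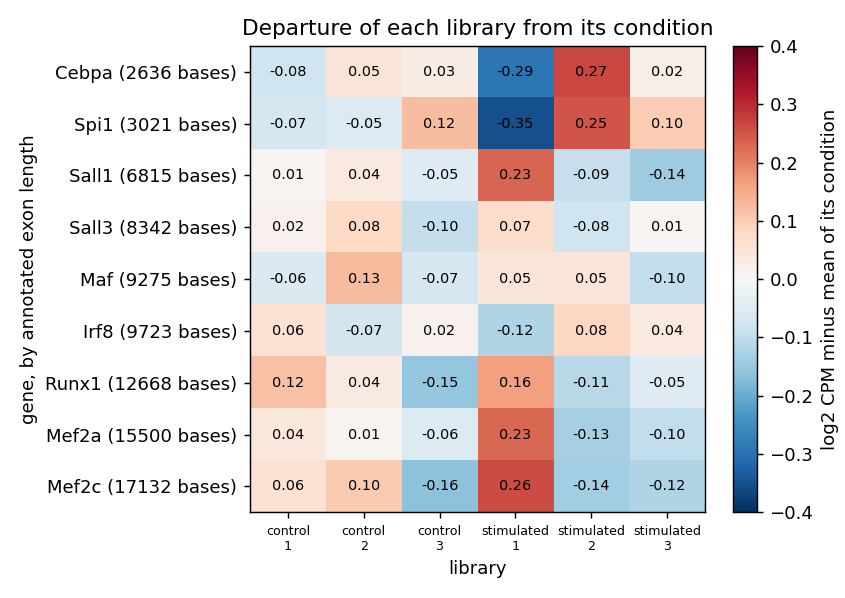
Log2 CPM of each library minus the mean log2 CPM of its condition (colour and printed value) for the 9 factors, ordered from short to long annotated exon length, across 3 control and 3 stimulated libraries. Stimulated replicate 1 is at -0.35 for Spi1 and -0.29 for Cebpa and at 0.23 for Mef2a and 0.26 for Mef2c. Among the other libraries, the lowest value is -0.16, for Mef2c in control replicate 3. The highest are 0.27 for Cebpa and 0.25 for Spi1, both in stimulated replicate 2.

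Exons of 5 factors share bases with a gene on the opposite strand, and the sources used here do not state whether counting used strand. The opposite gene of Runx1, Gm26626, shares 106 bases and had a mean count of 10.6% of that of Runx1. For Sall1 (Gm3134, 678 bases) it was 4.88%, and for Mef2a (Lysmd4, 1081 bases) 3.35%. Lysmd4 was lower in stimulated libraries, with a log2 fold change of -0.70 (edgeR adjusted p = 0.0060), opposite to Mef2a. For Maf, the share of Gm30712 was 0.0741%, and Gm15655, like Gm45091 at Cebpa, was not analysed here.

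Of 17 tested cofactors, 3 were higher, 4 lower and 10 did not pass the test, the median log2 fold change being -0.10 and the median size 0.25, beside 0.26 over all genes tested. The 3 higher calls became 0 or 1 with limma on log2 FPKM values, depending on the filter. Class IIa histone deacetylases, which bind MEF2 factors and repress their targets, were split: Hdac9 rose from 49.5 ± 3.67 to 76.2 ± 8.18 CPM (log2 fold change 0.62, edgeR adjusted p = 0.0012), Hdac4 rose by 0.40 (adjusted p = 0.042), Hdac7 fell by 1.22 (adjusted p = 0.0017), and Hdac5 was at 132 and 144 CPM without passing. Mapk14, the p38 kinase that activates MEF2 factors, was at 143, 138 and 135 CPM in the controls and fell to 90.2, 87.8 and 91.0 CPM (log2 fold change -0.63, edgeR adjusted p = 0.00016).

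Partners of the other factors showed both directions. Batf3, a partner of IRF8 in dendritic cells, fell by 0.75 on the log2 scale (edgeR adjusted p = 0.0090), and Jun, an AP-1 protein that can bind PU.1, by 0.39 (adjusted p = 0.0086). Trib1, which directs C/EBP alpha to degradation, rose by 0.41 (adjusted p = 0.0115). Components of the NuRD complex that SALL proteins recruit (Chd4, Hdac1, Hdac2, Mta2 and Rbbp4) had log2 fold changes from -0.25 for Hdac1 (adjusted p = 0.065) to 0.12 for Mta2 (adjusted p = 0.281) and did not pass the test.

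Other myeloid regulators went both ways. Of 18 tested, 7 were higher, 6 lower and 5 did not pass, but 5 were higher and 7 lower with scaling by library size alone or limma on log2 FPKM values. Their median log2 fold change was -0.06. Bhlhe40 and Bhlhe41, repressors that keep tissue macrophages in their resident state, rose from 29.7 ± 3.40 to 116 ± 3.60 CPM and from 71.2 ± 2.68 to 197 ± 6.98 CPM (log2 fold changes 1.97 and 1.47, edgeR adjusted p = 5.8e-07 and 8.9e-07). Id2, an inhibitor of helix-loop-helix factors, rose by 1.11, and Tal1, a blood stem cell factor, by 0.66. Ets2, an ETS factor downstream of ERK signalling, had the lowest value, falling from 89.8 ± 7.78 to 25.5 ± 0.965 CPM (log2 fold change -1.82, edgeR adjusted p = 6.4e-07). Tfec, Mitf, Prdm1, Lmo2 and Zeb2 also fell, by 1.43, 0.47, 0.88, 0.62 and 0.42.

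Genes long known as targets of PU.1 and C/EBP proteins did not follow a single direction. Of 10 tested, 1 was higher, 4 lower and 5 did not pass the test, at a median log2 fold change of 0.03, and 2 were lower with any 1 control library left out. Itgam, the CD11b integrin, rose from 798 ± 43.0 to 1410 ± 73.1 CPM (log2 fold change 0.82, edgeR adjusted p = 0.00012). Cybb, the NADPH oxidase subunit that PU.1 and IRF8 activate, fell from 2489 ± 38.9 to 783 ± 110 CPM (log2 fold change -1.67, edgeR adjusted p = 5.4e-06). Csf1r, the receptor that microglia need to survive, fell by 0.39 (adjusted p = 0.0111), Lyz2 by 0.57 and Fcgr1 by 0.34 (adjusted p = 0.0465).

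The closest profiles among 9830 genes with a mean of at least 5 CPM were found by the root mean square difference of centred log2 CPM over the 6 libraries. Sall1 and Mef2a were closest to each other, at 0.033, closer than either was to the other genes compared. Outside the 9 factors, Eya4, Phospho1 and Ssh2 were nearest to Sall1, at 0.060, 0.067 and 0.067, and Ssh2 was nearest to Mef2a at 0.043. Fmnl3 was nearest to Sall3 at 0.047, Ctsh to Cebpa at 0.039, Ctc1 to Irf8 at 0.023, Atp6v0c to Spi1 at 0.033, Rbm47 to Mef2c at 0.022, Bpnt2 to Runx1 at 0.017 and Mgll to Maf at 0.071. With 2 conditions, a large difference between them, which all 6 libraries share, makes up much of such likeness. Departures of single libraries also enter such likeness. Stimulated replicate 1 was above the other stimulated libraries by a similar log2 difference for Sall1 and Mef2a, 0.35 and 0.34. For Spi1 this difference was -0.53, beside a log2 fold change of -0.56. For Mef2c and Runx1 the log2 fold changes were only -0.23 and 0.24. These parts were not separated.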

How the data were processed

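RNA of 3 control and 3 stimulated microglia cultures was sequenced as read pairs. The authors mapped reads to mm39 with HISAT2 and deposited raw counts per gene from featureCounts. They also deposited FPKM values for the same genes. Versions, annotation and strand setting are not given in the sources used here. No column of the authors' own comparisons was used.

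Samples were grouped by their titles. Counts were filtered (filterByExpr), scaled by TMM and tested with edgeR 4.0.16 in R 4.3.3 (quasi-likelihood test, Benjamini-Hochberg adjustment over 14618 genes, threshold 0.05, common dispersion 0.0164). Ratios within a library had 0.5 added to both counts. DESeq2 1.42.0 on counts and limma 3.58.1 on log2(FPKM + 1 or 0.1) were alternatives, as were other scalings, filters, a replicate block, each library left out and, chosen after seeing the data, removal of a gene length trend. The scripts were tested on simulated data. Exon lengths came from GENCODE, with 35087 of 41079 symbols matched. Intervals on counts cover counting error only.

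The 9 factors and the gene lists were chosen with earlier results of these data known. The text names the 9 factors, listed genes by role with the most extreme called ones, genes sharing exon bases with a factor, and the nearest profiles (3 for Sall1, 1 for the others, without predicted genes). 1 of the planned ratios is not reported here.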

Additional observations from a re-analysis of the deposited data

How the results depend on the processing

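No alternative reversed the direction of any of the 9 factors or of the count ratios. Of the recomputed values, 326 kept their side of the threshold or stayed within 1.5 times the main count. A further 20 counts moved beyond that, 2 values gained a call and 1 lost it. The 326 include the ratios, whose p cannot fall below 0.1, so these could not cross the threshold of 0.05. Mef2c passed the test without stimulated replicate 1 (-0.37) and with the length trend removed (-0.31), and ranged from -0.37 to -0.17 over the libraries left out. Spi1 ranged from -0.70 to -0.41 and lost its call without control replicate 3, which left 1 lower member. Scaling by library size alone moved the median of all genes from 0.01 to -0.12 (log2) and the higher share of all calls from 49.1% to 32.3%. The other myeloid regulators turned from 7 higher and 6 lower to 5 higher and 7 lower under it and in the 3 limma fits. Under library size alone 4 relatives were lower (main 2) and 1 cofactor higher (main 3). With at least 10 counts in every library 1 relative was lower. With limma on log2(FPKM + 1) and a mean FPKM of at least 1, 2 relatives were higher (main 5), 1 lower and 1 cofactor higher, and without that filter 0 cofactors were higher under either pseudocount. Leaving out libraries gave 1 to 4 relatives lower, 1 to 3 cofactors higher, 1 to 2 targets higher and 2 to 4 targets lower. The cause was not tested. Same-numbered libraries deviated together with r of 0.27, -0.01 and 0.18, and stimulated replicate 2 correlated best with control replicate 3 (0.19), so the numbers were not taken to pair the samples. With the replicate block, 4924 genes were called against 4360, no member's call changed (Sall1 1.22, Maf -1.95, Spi1 -0.58, Runx1 0.24 with an adjusted p of 0.053), and the sign-flip test of each ratio gave its smallest p, 0.25.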
